A study of Mus musculus with 48 samples.

Results

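The transcripts described here are those of 9 Krüppel-like factor genes, Klf2, Klf3, Klf4, Klf6, Klf7, Klf9, Klf10, Klf13 and Klf15, in mouse striatal cultures exposed to steroids. Every probe that the array platform gives one of these symbols was taken, which came to 14 of 46174 probes, and the genes are 9 of 20250 named on the array. A further 3 probes carried older symbols of Klf9, Klf10 and Klf13 and are given beside them. Primary neurons were grown from the striatum of late-gestation embryos of C57Bl/6J mice, and primary astrocytes were isolated with magnetic beads against the astrocyte protein GLAST from pups of the same strain in the first week after birth. The samples are labelled as striatum, and no genetic change was made in either cell type. Astrocytes were first grown in high-glucose DMEM with serum, and neurons in Neurobasal medium with a supplement. All cultures, vehicle cultures included, were kept in medium without supplements for the last day. They then received dexamethasone at 100 nM, aldosterone, progesterone, dihydrotestosterone or estradiol at 200 nM each, or ethanol vehicle, for 4 h. With 4 arrays in each of the 12 groups there were 48 arrays.

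Krüppel-like factors are zinc-finger transcription factors that bind GC-rich and CACCC-type DNA elements, and different members activate or repress transcription at similar sites. Several are known as genes that respond within hours to hormones, serum or stress. Klf9 is known in brain as a gene induced by glucocorticoid and thyroid hormone, and Klf15 is known in muscle and liver as a glucocorticoid-induced regulator of amino acid metabolism. Dexamethasone is a synthetic ligand of the glucocorticoid receptor, and aldosterone is the natural mineralocorticoid. Progesterone, dihydrotestosterone and estradiol are ligands of the progesterone, androgen and estrogen receptors.

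All values are normalized log2 intensities, and for genes with more than 1 probe the values are those of the brightest one on average. Background, set as the 95th percentile of the means of 1297 olfactory receptor probes, was 7.22, and each of the 9 genes had a probe above it in its highest group. A gene was called changed when its adjusted p was under 0.01 in a limma fit of all 12 groups, with p adjusted over all 46174 probes. The cultures differed in the markers of their labels: among vehicle cultures all 8 astrocyte markers were higher in the astrocytes, and 7 of 8 neuron markers in the neurons. The neuron cultures still held astrocyte transcripts, with all 8 markers above background in vehicle neurons. Their summed level was 16.46 to 16.76 there and 18.35 to 18.46 in vehicle astrocytes. The astrocyte cultures also held microglial transcripts. The 8 microglia markers were all above background there, with a summed level of 15.69 to 15.81 in vehicle astrocytes and 11.56 to 11.79 in vehicle neurons. In such bulk cultures fewer cells of a type and less RNA per cell cannot be told apart. Neuron arrays vehicle 3 and dexamethasone 3 stood apart from their groups over glucocorticoid-responsive genes in earlier work on these data and were left out here, so 46 arrays were analysed and those groups have 3 arrays each. That choice used the response to dexamethasone in neurons, so p-values for dexamethasone in neurons are not independent of it, and results that depend on it are given both ways.

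Dexamethasone raised 7 of the 9 genes in astrocytes. Klf9, Klf13, Klf15, Klf4, Klf7, Klf2 and Klf6 were called higher, none was called lower, and Klf3 and Klf10 did not pass the test. Over all 20250 genes 2.68% were called higher in this comparison and 2.56% lower. The median log2 fold change was 0.58 over the 9 genes and -0.01 over all genes. All 7 also had every dexamethasone array above every vehicle array, which held for 4.02% of all probes.

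Klf9 changed most. On the vehicle astrocyte arrays its levels were 11.79, 11.64, 11.42 and 11.63, and on the dexamethasone arrays they were 13.90, 14.35, 13.76 and 14.18. The groups were separated by about the size of the change itself, and within each replicate number the rise was between 2.11 and 2.71. The log2 fold change was 2.43 ± 0.11 (SE, 4 arrays a group), a 5.38-fold rise (adjusted p = 1.22e-22), which ranked 27 among all probes. The older-symbol probe of Klf9 rose by 2.19 ± 0.18 (adjusted p = 3.06e-13).

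Klf13, a close relative of Klf9 known as a regulator of Ccl5 transcription in T cells, was next. Its vehicle levels were 11.59, 11.60, 11.42 and 11.34, and its dexamethasone levels were 13.15, 13.03, 12.94 and 13.01. No array of one group came near the other. The change was 1.54 ± 0.08, or 2.92-fold (adjusted p = 2.00e-20), and the older-symbol probe gave 1.5 ± 0.13 (adjusted p = 2.08e-12).

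Klf15 was close to background without steroid, at 7.31, 7.49, 7.63 and 7.48 on the vehicle arrays. With dexamethasone it was at 8.23, 8.52, 8.72 and 8.86. The groups did not overlap, and the rise within each replicate number was between 0.92 and 1.38. The change was 1.10 ± 0.18, or 2.15-fold (adjusted p = 1.48e-05), and fold changes of a dim probe are compressed by background signal.

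The promoter windows of these 3 genes are shown because, by brightest probe, they had the largest rises with dexamethasone in astrocytes. The rise of Klf4, given below, was close to that of Klf15. Each is the 250 bases before the gene start used by the RefSeq promoter table (mouse build GRCm38.p6), read 5′ to 3′ on the strand of the gene. Klf9 is at chr19:23140976-23141225 on the plus strand, Klf13 at chr7:63938916-63939165 on the minus strand and Klf15 at chr6:90462326-90462575 on the plus strand. The annotated Klf15 gene begins upstream of that window, at position 90461043. Capitals mark GC boxes (GGGCGG) and CACCC boxes (CACCC) on either strand, the element classes that the Krüppel-like factors themselves bind.
Klf9: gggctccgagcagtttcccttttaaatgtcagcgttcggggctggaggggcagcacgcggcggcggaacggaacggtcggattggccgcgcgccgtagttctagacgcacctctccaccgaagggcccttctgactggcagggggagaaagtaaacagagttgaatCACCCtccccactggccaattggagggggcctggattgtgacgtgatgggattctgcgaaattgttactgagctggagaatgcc
Klf13: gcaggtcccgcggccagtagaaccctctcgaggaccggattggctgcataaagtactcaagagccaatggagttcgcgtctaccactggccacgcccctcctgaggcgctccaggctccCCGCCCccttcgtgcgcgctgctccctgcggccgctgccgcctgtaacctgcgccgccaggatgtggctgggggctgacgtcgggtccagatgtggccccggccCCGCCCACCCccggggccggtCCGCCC
Klf15: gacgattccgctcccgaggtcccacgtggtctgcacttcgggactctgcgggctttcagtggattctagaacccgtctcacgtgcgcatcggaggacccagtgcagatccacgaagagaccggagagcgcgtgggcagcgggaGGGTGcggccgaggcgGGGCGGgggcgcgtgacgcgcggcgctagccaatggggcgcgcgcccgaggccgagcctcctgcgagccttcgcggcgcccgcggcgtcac

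Promoter windows were found for 8 of the 9 genes, Klf10 being the other. A GC box was present in 7 of the 8, all but Klf9, against 32.7% of all 32851 promoter windows of the same length. A CACCC box was present in 6 of the 8, all but Klf4 and Klf6, against 52% of all windows. The windows of these genes were also richer in G and C than most, at 59.2% to 78.4% against a median of 52.4%, and the GC box moves with base composition. Neither a full glucocorticoid receptor element, AGAACA and TGTTCT separated by NNN, nor its single arm AGAACA, which is contained in it, occurred in any of the 8 windows on either strand. Of all windows, 0.00913% and 16.1% held them. In Klf13 one GC box and the CACCC box share a base.

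Klf4, one of the factors that reprogram cells to pluripotency and a regulator of myeloid and endothelial genes, also rose with dexamethasone. Its vehicle levels were 7.92, 8.04, 8.09 and 8.20 and its dexamethasone levels were 8.95, 8.80, 9.28 and 9.11. The lowest treated array lay above the highest vehicle array. The change was 0.97 ± 0.13, or 1.96-fold (adjusted p = 8.79e-08), and the other probes of Klf4 rose by 1.04 ± 0.11 (adjusted p = 1.34e-09) and 0.58 ± 0.10 (adjusted p = 1.96e-05).

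Klf2, known for its control by blood flow in endothelial cells and for quiescence of T cells, rose by 0.57 ± 0.09, or 1.49-fold (adjusted p = 7.01e-06). Its vehicle levels were 10.56, 10.58, 10.57 and 10.79, and its dexamethasone levels were 11.15, 11.29, 11.15 and 11.20. Klf2 and Klf4 are both also expressed by myeloid cells, so the microglia markers are given here. Of the 8, C1qb rose with dexamethasone (0.59 ± 0.14, adjusted p = 0.00473), Cx3cr1 fell by 1.04 (SE 0.14, adjusted p = 4.41e-07) and P2ry12 fell by 0.58 (SE 0.12, adjusted p = 5.36e-04). The summed level of the 8 was 15.76 to 15.82 on the dexamethasone arrays, overlapping the vehicle range. Their part in the rises of Klf2 and Klf4 was not tested.

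Klf7, a factor known for its role in axon growth and sensory neuron development, rose from 11.75, 11.82, 11.43 and 11.64 to 12.34, 12.30, 12.12 and 12.20. The groups did not overlap, and the change was 0.58 ± 0.09 (adjusted p = 1.10e-05). The second Klf7 probe rose by 0.49 ± 0.11 (adjusted p = 0.00187), and the third gave 0.31 ± 0.11 and did not pass (adjusted p = 0.122). Klf6, described as a growth regulator and tumour suppressor, gave the smallest called change, 0.43 ± 0.11 (adjusted p = 0.00902). Its levels were 11.80, 11.90, 12 and 12.04 with vehicle and 12.34, 12.25, 12.35 and 12.52 with dexamethasone. The call for Klf6 sat at the threshold: it was lost without any of the 4 vehicle arrays or without dexamethasone 1, 3 or 4, with adjusted p of 0.0105 to 0.0539. The second, dimmer Klf6 probe gave 0.45 ± 0.19 (adjusted p = 0.211).

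The remaining genes were dim. Klf3, a repressor that recruits the corepressor CtBP, was at 7.40 to 7.66 on the vehicle arrays and 7.36 to 7.49 on the dexamethasone arrays, a change of -0.08 with a 95% interval of -0.24 to 0.09. Klf10, described as an early gene of the TGF-beta response, was at 7.34 to 7.55 and 7.25 to 7.56, a change of -0.01 with an interval of -0.29 to 0.28. The older-symbol probe of Klf10 did not reach background in any group.

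**Figure D1:**
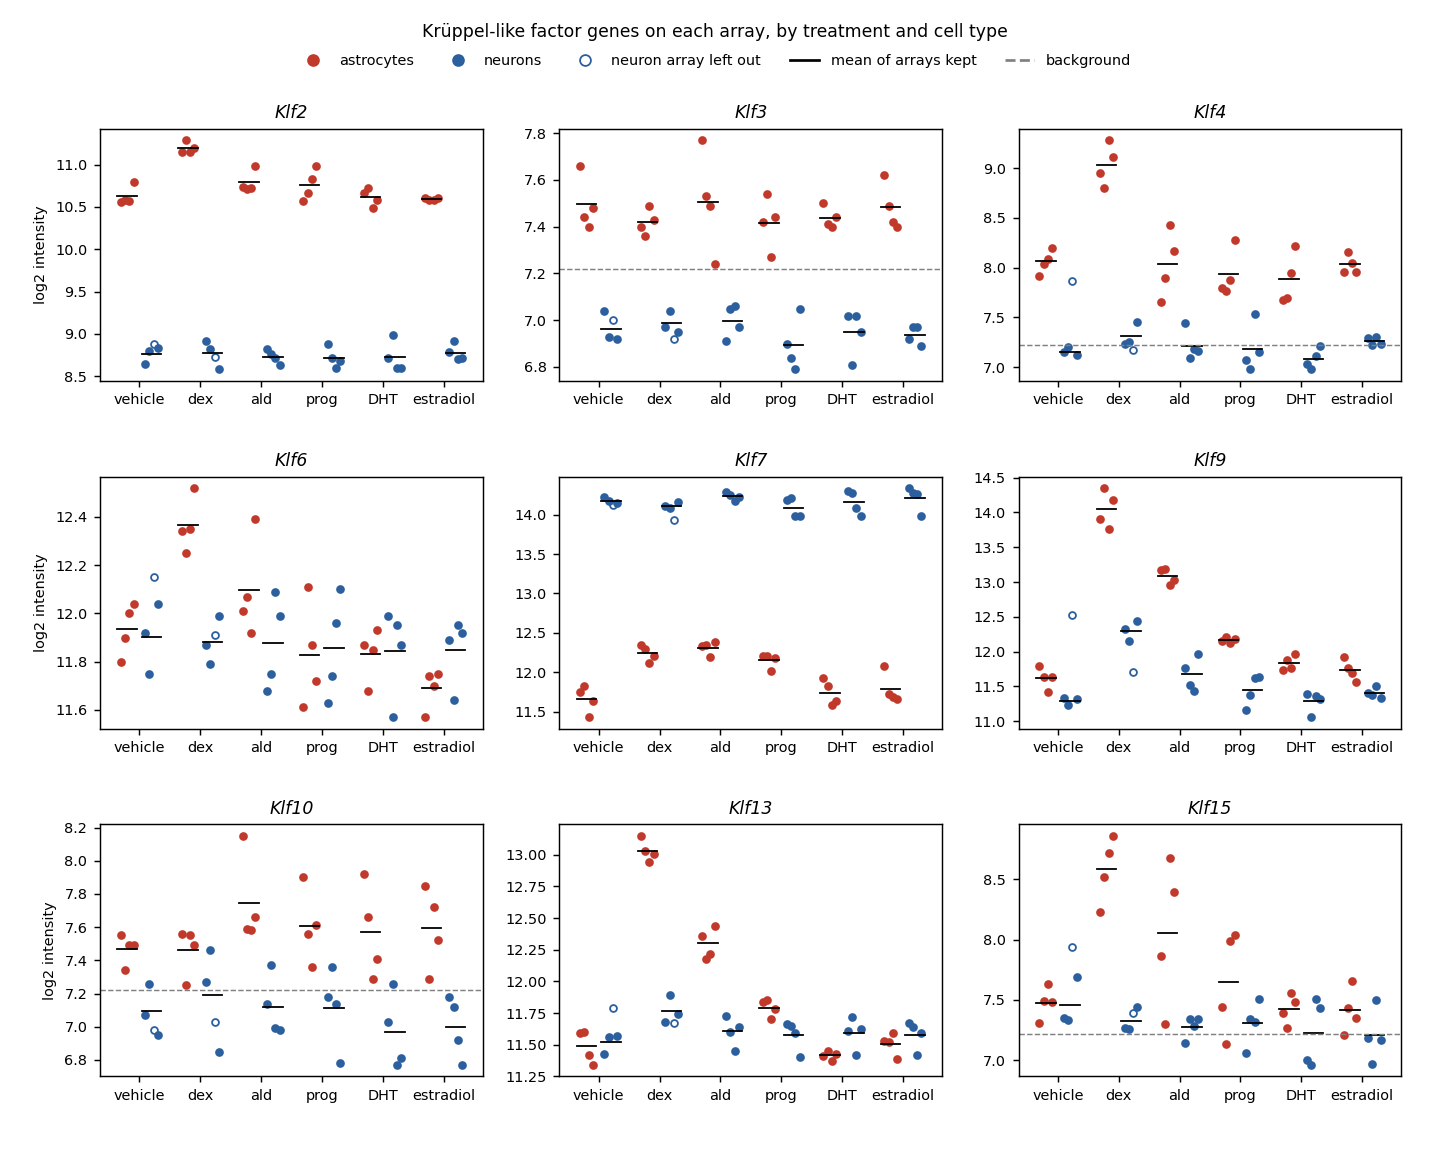
Normalized log2 intensity of the representative probe of each of the 9 genes on every array, by treatment, with astrocytes in red and neurons in blue. Bars are means of the arrays kept, open circles are the neuron arrays left out and the dashed line is background (7.22). Klf9 and Klf13 step down from dexamethasone to aldosterone to progesterone in astrocytes, and Klf7 and Klf2 are set apart by cell type.

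Aldosterone raised 3 of the 9 genes in astrocytes, Klf9, Klf13 and Klf7, and lowered none, where 0.662% of all genes were called higher and 0.173% lower. All steroids were compared with the same vehicle arrays, and the doses of aldosterone and dexamethasone differ, so their values stand side by side without a test. Klf9 was at 13.17, 13.19, 12.96 and 13.03 with aldosterone, all above the vehicle arrays, as held for 2.8% of all probes, and all below the dexamethasone arrays. Its change was 1.47 ± 0.11, or 2.77-fold (adjusted p = 9.47e-14). Klf13 showed the same order, at 12.36, 12.18, 12.22 and 12.44, with a change of 0.81 ± 0.08 (adjusted p = 5.45e-10). Klf7 did not: its aldosterone levels of 12.33, 12.34, 12.19 and 12.38 overlapped those with dexamethasone, and its change of 0.65 ± 0.09 (adjusted p = 7.86e-06) stood beside 0.58 with dexamethasone. The summed microglia markers were 15.88 to 16.11 with aldosterone, above the vehicle range, with 0 of the 8 called, and their part in these changes was not tested. The second probe of Klf7 rose by 0.52 ± 0.11 (adjusted p = 0.00389), and the third gave 0.29 ± 0.11 (adjusted p = 0.307).

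Klf15 varied widely with aldosterone, at 7.86, 7.30, 8.68 and 8.39, so that array 2 lay below every vehicle array and the others above all of them. The change was 0.58 ± 0.18 and did not pass (adjusted p = 0.135). It passed without aldosterone array 2 (0.83, adjusted p = 0.00405), and in a fit blocked on the replicate number (0.58, adjusted p = 0.00277). Klf4 gave -0.02 ± 0.13 with an interval of -0.28 to 0.23 by its brightest probe. The other Klf4 probes had higher means with aldosterone, 7.88 against 7.57 with vehicle and 7.32 against 7.09. Their aldosterone and vehicle arrays overlapped. Klf2 and Klf6 gave 0.17 ± 0.09 and 0.16 ± 0.11. Klf10 gave 0.28 ± 0.14 (adjusted p = 0.516), with array 1 at 8.15 and the others at 7.58 to 7.66.

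Progesterone raised 1 of the 9 genes in astrocytes, Klf7, where 0.0889% of all genes were called higher. Klf7 was at 12.21, 12.20, 12.02 and 12.18, a change of 0.49 ± 0.09 (adjusted p = 0.00869). This call was lost without vehicle array 1, 3 or 4 or progesterone array 1, 2 or 4, with adjusted p of 0.0117 to 0.0853. The second Klf7 probe had a mean of 11.62 against 11.31 with vehicle, and the third 11.2 against 11.02. For each of these probes the progesterone and vehicle arrays overlapped. Klf9 was at 12.15, 12.21, 12.13 and 12.18, a tight group above every vehicle array, as held for 1.85% of all probes, and gave 0.55 ± 0.11 (adjusted p = 0.0162). In a fit blocked on the replicate number Klf9 also passed (adjusted p = 0.00128), which made 2 genes in place of 1. The older-symbol probe of Klf9 had a mean of 9.35 against 9.12 with vehicle, and its progesterone and vehicle arrays overlapped. Klf13 was at 11.84, 11.85, 11.70 and 11.78, all above the vehicle arrays, with a change of 0.31 and an adjusted p of 0.188.

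Dihydrotestosterone and estradiol gave no call among the 9 genes in astrocytes by limma, and 0% of all genes were called with either. At an unadjusted p under 0.05 there were 0 genes for dihydrotestosterone and 1 for estradiol, and the methods' t-test also called 0 for each. For Klf9 the change was 0.22 with dihydrotestosterone (95% interval -0.01 to 0.44) and 0.12 with estradiol (-0.11 to 0.34). Its older-symbol probe had lower means with these steroids, 8.92 and 9.04, than with vehicle, 9.12. For Klf13 the change was -0.07 (-0.23 to 0.09) and 0.02 (-0.14 to 0.18). The gene with estradiol was Klf6, at 11.57, 11.74, 11.70 and 11.75, all below the vehicle arrays as in 1.26% of all probes, with a change of -0.25 ± 0.11 (adjusted p = 0.733).

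The 4 steroids given at 200 nM were compared with each other in astrocytes, which made 6 pairs. Klf9 and Klf13 were higher with aldosterone than with each of the other 3. Against progesterone the difference was 0.92 ± 0.11 for Klf9 (adjusted p = 2.96e-07) and 0.51 ± 0.08 for Klf13 (adjusted p = 1.21e-04), and these were the 2 genes called, where 0.227% of all genes were called higher. For Klf7 the difference from progesterone was 0.16, with an interval of -0.03 to 0.35, and did not pass. Against dihydrotestosterone 3 genes were called, where 0.454% of all genes were: Klf9 by 1.25 ± 0.11, Klf13 by 0.88 ± 0.08 and Klf7 by 0.57 ± 0.09 (adjusted p = 1.66e-11, 3.77e-11 and 1.18e-04). Klf15 differed from dihydrotestosterone by 0.63 (adjusted p = 0.137), and passed with the replicate block (adjusted p = 0.00117). Against estradiol the same 3 were called, where 0.484% of all genes were: Klf9 by 1.35 ± 0.11, Klf13 by 0.79 ± 0.08 and Klf7 by 0.53 ± 0.09 (adjusted p = 1.34e-12, 1.16e-09 and 5.04e-04). With the replicate block 5 genes passed against estradiol, with Klf15 (0.65, adjusted p = 8.26e-04) and Klf6 (0.41, adjusted p = 0.00569) added.

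Progesterone against dihydrotestosterone and against estradiol gave 0 calls by limma and by the methods' t-test, with 3 genes at an unadjusted p under 0.05 in each, where 0.0494% and 0.0346% of all genes were called higher. Klf13 came nearest, with 0.38 ± 0.08 against dihydrotestosterone (adjusted p = 0.0653). Klf7 differed from dihydrotestosterone by 0.41 ± 0.09 (adjusted p = 0.125), and passed with the replicate block (adjusted p = 0.0048), the only one of the 9 to do so in that pair. Dihydrotestosterone against estradiol gave 0 calls and 0 genes at an unadjusted p under 0.05 by either test, and 0% of all genes were called.

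**Figure D2:**
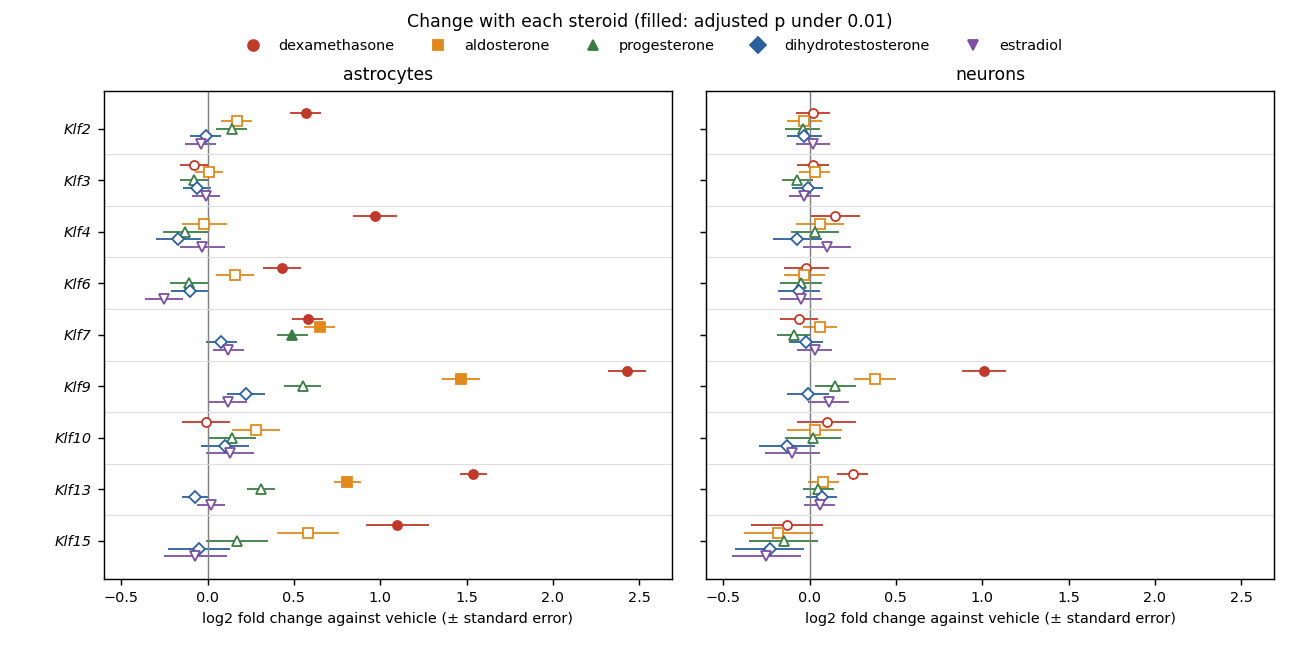
Log2 fold change against vehicle with its standard error for each of the 9 genes and 5 steroids, in astrocytes (left) and neurons (right). Filled symbols passed an adjusted p of 0.01: 7 genes with dexamethasone, 3 with aldosterone and 1 with progesterone in astrocytes, and Klf9 with dexamethasone in neurons.

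In neurons Klf9 was the only one of the 9 genes called with any steroid. Its levels were 11.33, 11.24 and 11.32 on the 3 vehicle arrays kept and 12.32, 12.15 and 12.44 on the 3 dexamethasone arrays kept. The groups did not overlap, and the change was 1.01 ± 0.13, or 2.01-fold (adjusted p = 1.73e-06), where 0.163% of all genes were called higher. This result rests on the arrays left out. The array labelled vehicle 3 was at 12.53, above every dexamethasone neuron array, and the array labelled dexamethasone 3 was at 11.71, below the others of its group and above the vehicle arrays kept. With all 48 arrays as labelled the change was 0.55 and did not pass (adjusted p = 0.976). Whether the labels of these arrays were exchanged was not tested, and what the value from all 48 arrays means depends on it. The older-symbol probe of Klf9 gave 0.95 ± 0.21 in the arrays kept (adjusted p = 0.0261). The summed astrocyte markers were 16.61 to 16.96 in these dexamethasone neurons and 16.46 to 16.76 in the vehicle neurons, and 1 of the 8, Aldoc, was called higher (0.53 ± 0.11, adjusted p = 0.00772, and 0.22 ± 0.13, adjusted p = 0.997, with all 48 arrays). Their part in the result was not tested.

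Klf13 gave 0.25 ± 0.09 with dexamethasone in neurons, at 11.68, 11.89 and 11.74 against 11.43, 11.56 and 11.57 with vehicle. The arrays kept did not overlap, which held for 3.85% of all probes in this comparison, and the change did not pass (adjusted p = 0.999). Vehicle array 3, left out, was at 11.79, within the range of these dexamethasone arrays, and dexamethasone array 3 was at 11.67. The older-symbol probe of Klf13 gave 0.35 ± 0.15. Klf4 was the third gene whose kept arrays did not overlap, at 7.23, 7.25 and 7.45 against 7.15, 7.20 and 7.12, all near background (0.15 ± 0.14). For Klf4 the left-out vehicle array 3 was at 7.87, above all of these dexamethasone arrays. The left-out dexamethasone array 3 was at 7.17, within the range of the vehicle arrays kept. Klf15 gave -0.13 with an interval of -0.55 to 0.29, at 7.27, 7.26 and 7.44 against 7.35, 7.33 and 7.69. The other neuron comparisons gave 0 calls among the 9 genes by limma and by the methods' t-test. With aldosterone 1 gene, Klf9, had an unadjusted p under 0.05 (0.38 ± 0.12, adjusted p = 0.999). It was at 11.77, 11.52, 11.43 and 11.97, all above the vehicle arrays kept as in 1.85% of all probes, and 0.00494% of all genes were called. With progesterone, dihydrotestosterone and estradiol 0 of the 9 genes had an unadjusted limma p under 0.05, and 0% of all genes were called.

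By a test of the difference itself, 5 of the 9 genes responded more to dexamethasone in astrocytes, where 0.963% of all genes were called in that direction and 0.553% in the other. The difference was 1.42 ± 0.17 for Klf9 (adjusted p = 4.65e-08) and 1.29 ± 0.12 for Klf13 (adjusted p = 7.46e-11). Both were called in every alternative that could be run and without any single array of the 4 groups. For Klf15 it was 1.24 ± 0.28 (adjusted p = 0.00551), for Klf4 0.82 ± 0.19 (adjusted p = 0.00981) and for Klf7 0.64 ± 0.14 (adjusted p = 0.00522), and each of these 3 lost its call without some single arrays. Only Klf9 and Klf13 were left without vehicle neuron array 1 or 4 or dexamethasone neuron array 1 or 2. With each array of the 4 groups left out in turn, 2 to 4 genes were called, so the count of 5 was never kept. Klf2 gave 0.56 ± 0.14 (adjusted p = 0.0183), and passed with the replicate block (adjusted p = 0.00366) and with all 48 arrays (0.60, adjusted p = 0.00192). With all 48 arrays the difference for Klf9 was 1.88 (adjusted p = 7.47e-08).

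For aldosterone the difference between cell types was 1.09 ± 0.16 for Klf9 (adjusted p = 5.33e-05) and 0.73 ± 0.12 for Klf13 (adjusted p = 2.82e-04), and these 2 were called where 0.183% of all genes were. Klf7 gave 0.59 ± 0.14 (adjusted p = 0.0436), and passed with the replicate block (0.58, adjusted p = 0.00311).

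**Figure D3:**
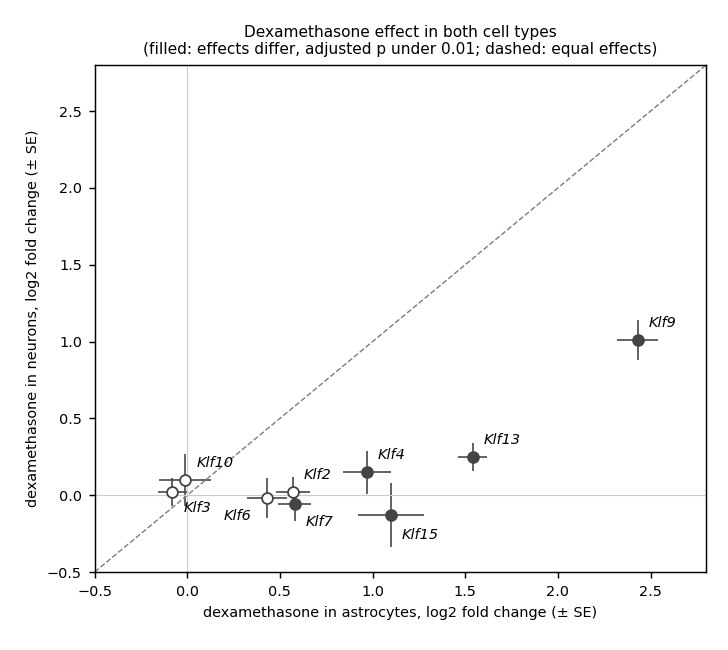
Log2 fold change with dexamethasone in neurons (vertical) against that in astrocytes (horizontal) for the 9 genes, with standard errors and the line of equal effects. Filled points are the 5 genes whose effects differed between cell types (Klf4, Klf7, Klf9, Klf13 and Klf15), all below the line.

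Without steroid, 4 of the 9 genes differed between the cell types, 3 higher and 1 lower in astrocytes, where 22.9% and 19.9% of all genes were called. Donor age and the medium before the last day also differed between the cultures, so their parts and that of cell type cannot be told apart. Klf7 was far higher in neurons, at 14.22, 14.17 and 14.15 against 11.75, 11.82, 11.43 and 11.64 in astrocytes. The difference was -2.52 ± 0.10 (adjusted p = 1.30e-26), and the other Klf7 probes gave -2.47 and -2.38. Every neuron group of Klf7 lay above every astrocyte group, while neuron groups next to each other in order of mean overlapped. Aldosterone neurons (14.18 to 14.29) and dexamethasone neurons (14.08 to 14.16) did not overlap. Klf2 was the reverse, at 8.64, 8.80 and 8.83 in neurons and 10.56 to 10.79 in astrocytes, a difference of 1.87 ± 0.10 (adjusted p = 4.28e-22). All astrocyte groups of Klf2 lay above all neuron groups.

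Klf4 was under background on the 3 vehicle neuron arrays kept, at 7.15, 7.20 and 7.12, and Klf3 likewise, at 7.04, 6.93 and 6.92. Against background, Klf4 was at least 1.80-fold higher in astrocytes than on these arrays (fitted difference 0.91 ± 0.14, adjusted p = 1.53e-07). Vehicle neuron array 3, left out, was at 7.87 for Klf4, above background, so the Klf4 bound does not cover that array. Klf3 was at least 1.21-fold higher (fitted difference 0.53 ± 0.09, adjusted p = 1.06e-06). Both bounds take the mean of the astrocyte arrays over background. For Klf2 and Klf4 the microglia markers moved with the difference: all 8 were called higher in vehicle astrocytes, with a median of 3.90, and their part in it was not tested. Endothelial markers showed no such shift, with 2 of 8 called higher and 2 lower and summed levels of 10.66 to 10.92 in vehicle astrocytes and 10.78 to 10.85 in vehicle neurons. The fibroblast and mural list had a summed level of 16.26 to 16.42 in vehicle astrocytes and 12.72 to 12.99 in vehicle neurons, with 3 of 8 called higher and 1 lower. Most of the astrocyte sum came from Acta2, at 16.28 in vehicle astrocytes and 9.55 in vehicle neurons. Dcn went the other way, at 9.35 and 12.51. The oligodendrocyte list, 7 of 8 genes measured, had 4 called lower and summed to 14.50 to 14.86 and 15.22 to 15.58.

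Klf6, Klf13 and Klf15 had overlapping vehicle levels in the cell types, with differences of 0.03 (95% interval -0.21 to 0.27), -0.03 (-0.21 to 0.14) and 0.02 (-0.37 to 0.41). The second Klf6 probe had means of 7.64 in vehicle astrocytes and 8.13 in vehicle neurons. For the older-symbol probe of Klf13 they were 10.08 and 9.85. The arrays of each of these probes overlapped between the cell types. Klf9 gave 0.32 ± 0.12 (adjusted p = 0.0276), and 0.01 with all 48 arrays. Klf10 gave 0.37 ± 0.16 (adjusted p = 0.0531), and passed with the replicate block (0.41, adjusted p = 5.99e-04).

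Ordered by mean level over the 12 groups, Klf9 ran from dexamethasone astrocytes (14.05 ± 0.27, SD) to aldosterone astrocytes (13.09 ± 0.11), then dexamethasone neurons (12.30 ± 0.15) and progesterone astrocytes (12.17 ± 0.03). The arrays of dexamethasone neurons and progesterone astrocytes overlapped, and those of the pairs before did not. The other groups of Klf9 lay between 11.28 and 11.84. For Klf13 the order began with dexamethasone astrocytes (13.03 ± 0.09) and aldosterone astrocytes (12.30 ± 0.12), each apart from the next, and the other 10 groups lay between 11.42 and 11.79 with neighbours overlapping. For Klf4 and Klf2 dexamethasone astrocytes stood apart at the top, at 9.04 and 11.20, and the other 5 astrocyte groups of each overlapped with the next in order and lay apart from the neurons below them. For Klf15, Klf6, Klf3 and Klf10 no neighbouring groups were apart, except at the step from astrocytes to neurons in Klf3.

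**Figure D4:**
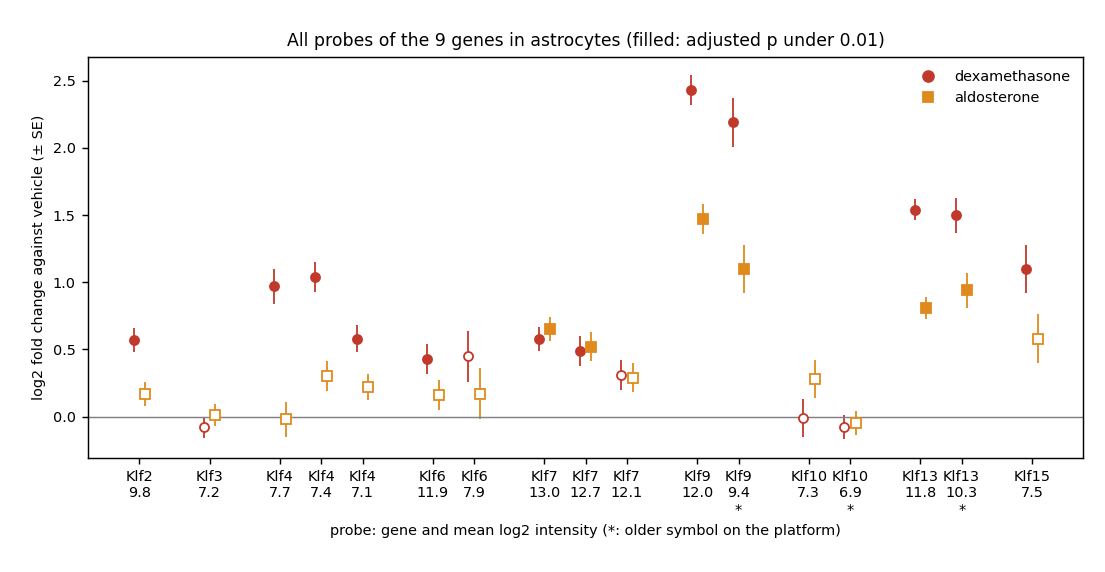
Log2 fold change against vehicle in astrocytes with its standard error for all 17 probes of the 9 genes, for dexamethasone (circles) and aldosterone (squares), each probe labelled with its gene and its mean log2 intensity. Filled symbols passed an adjusted p of 0.01. Probes of Klf4, Klf9 and Klf13 agree in call with dexamethasone, while the third Klf7 and the second Klf6 probe did not pass.

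Of 18 other Klf and Sp genes, 16 were measured and 1 was called with any steroid. That was Klf5, a factor of epithelial and smooth muscle growth, with dexamethasone in astrocytes, where 2.68% of all genes were called higher. It rose from a range of 9.87 to 10.41 to one of 10.55 to 11, a change of 0.68 ± 0.12 (adjusted p = 7.13e-05). A second Klf5 probe, under background on average at 6.67, gave 0.00 ± 0.09. The median of the list was 0.02, against -0.01 over all genes. Of 15 genes for cofactors and ubiquitin ligases that act with or on Krüppel-like factors, 14 were measured and 2 rose with dexamethasone in astrocytes, beside the same 2.68% of all genes. They were Sap30, a subunit of the Sin3 corepressor complex (0.55 ± 0.10, adjusted p = 1.31e-04), and Ep300, a histone acetyltransferase (0.42 ± 0.10, adjusted p = 0.00356). The other Ep300 probes, under background on average at 6.87 and 6.9, gave -0.03 and -0.01. None of this list was called with the other steroids in astrocytes or with any steroid in neurons. Without steroid, 2 of the 16 family genes were higher and 6 lower in astrocytes, and 5 and 3 of the 14 cofactor genes, where 22.9% and 19.9% of all genes were called.

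Of 8 genes known as targets of Klf15 in other tissues, all measured, 3 rose with dexamethasone in astrocytes, where 2.68% of all genes did. Prodh, which encodes proline dehydrogenase, rose from 10.05 to 10.21 on the vehicle arrays to 11.74 to 11.94, a change of 1.74 ± 0.09 (adjusted p = 5.17e-20). Bcat2, the mitochondrial branched-chain aminotransferase, rose by 0.60 ± 0.15 (adjusted p = 0.00489). A second Bcat2 probe, under background on average at 6.74, gave -0.30 ± 0.11 (adjusted p = 0.116). Gpt2, an alanine aminotransferase, rose by 0.38 ± 0.08 (adjusted p = 9.94e-04). With aldosterone Prodh rose by 1.01 ± 0.09 (adjusted p = 6.90e-11) and was the only one called, where 0.662% of all genes were called higher. In neurons, where Klf15 was not called, 2 of the 8 were called higher with dexamethasone, beside 0.163% of all genes. Prodh gave 0.76 ± 0.11 (adjusted p = 2.28e-05) and Gpt2 gave 0.61 ± 0.09 (adjusted p = 7.72e-05). As for Klf9, these p-values are not independent of the arrays left out, and with all 48 arrays Prodh gave 0.46 ± 0.12 (adjusted p = 0.652) and Gpt2 0.35 ± 0.10 (adjusted p = 0.908), neither passing. The part of astrocyte transcripts in the neuron cultures was not tested for these genes. The median of this list with dexamethasone was 0.12 in astrocytes and 0.19 in neurons, and without steroid 4 of the 8 were higher and 1 lower in astrocytes, beside 22.9% and 19.9% of all genes.

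Among the 13599 other genes above background, those whose pattern was most like each called member were found by Pearson's r over the 46 arrays, after the level of each cell type was subtracted. These are descriptions, since all arrays share the same treatments and libraries. Klf9 was most like Acsl3 (r = 0.97), Fkbp5 (0.96) and Pdk4 (0.95). Klf13 was most like Slc25a33 (0.97), Bcat1 (0.97) and Fkbp5 (0.96). Klf4 was nearest to Fgfbp1 (0.88), Car14 (0.87) and Omd (0.86), and Klf15 to Frmpd1 (0.84), Arrdc2 (0.82) and Fgfbp1 (0.81). Klf2 was nearest to P2rx5 (0.84), Lpin1 (0.83) and Defb1 (0.83), Klf7 to Zhx3 (0.81), Zfp469 (0.79) and Rnf19a (0.79), and Klf6 to Arrdc2, Hacd2 and Hspb1 (0.76 each).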

How the data were processed

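The arrays were Illumina mouse whole-genome bead arrays hybridised with biotinylated cRNA, 1 array per sample. The study's methods call the arrays of a group biological replicates, without saying whether they came from separate dissections. The authors subtracted background, quantile-normalized the signals and took log2, and the deposited log2 intensities of 46174 probes were used as they are (column medians 7.10 to 7.16). For arrays the number of samples limits the precision. Probes were named from the platform annotation, 35725 of them with 1 symbol, 10449 with none and 0 with several, with symbols updated through RefSeq identifiers. The deposited table of values before normalization was not used for levels, because only 1 of its 48 columns was closest to the sample its label names. By value, all 8 of its chips held 6 treatments of 1 cell type and 1 replicate number. On that reading the replicate number also marks the chip, and chip and cell type cannot be told apart. The chip named in the labels, used below as an alternative, is a different grouping.

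Contrasts of 12 group means were tested with limma 3.58.1 in R 4.3.3 (lmFit, eBayes), with Benjamini-Hochberg adjustment over all probes and calls at 0.01. The fit had 34 residual and 11.4 prior degrees of freedom, and its procedure was tested on simulated data. Tables were made with Python 3.11.15 and pandas 2.3.3. The 9 genes, the other lists and the tests were chosen with earlier results of these data known. The genes named were the 9 members, every gene of the other family, cofactor and Klf15 target lists that was called, and the 3 nearest genes in likeness. Arrays with the same replicate number deviated together from their group means (r of 0.115 to 0.325 in 60 astrocyte pairs and 0.13 to 0.564 in 51 neuron pairs, each over 0.1), so the numbers pair the arrays within a cell type. Where the pairing as a block changes a call, that value is given.

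Alternatives were all 48 arrays, quantile normalization within each cell type, a shift of each array to the same median, the replicate block, removal of dim probes, fitting astrocytes and neurons separately, the chip named in the labels as a random block (correlation 0.05), the methods' t-test and leaving out each array.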

Additional observations from a re-analysis of the deposited data

Results flagged for a closer look

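Among 108 gene and group combinations of 4 arrays, 7 held 1 array far from the others of its group, where chance gives about 1 in 20. In neurons, vehicle array 3 was at 12.53 for Klf9 (others 11.24 to 11.33) and at 7.87 for Klf4 (others 7.12 to 7.20), and it is one of the arrays left out. In astrocytes, Klf2 was at 10.99 on aldosterone array 4 (others 10.71 to 10.74) and at 10.79 on vehicle array 4 (others 10.56 to 10.58). Klf7 was at 12.08 on estradiol array 1 (others 11.66 to 11.72) and at 12.02 on progesterone array 3 (others 12.18 to 12.21). Klf10 was at 8.15 on aldosterone array 1 (others 7.58 to 7.66).

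Of 18 tests of whether a steroid effect differed between the cell types, 7 passed. For dexamethasone the effect in astrocytes exceeded that in neurons by 1.42 for Klf9, 1.29 for Klf13, 1.24 for Klf15, 0.82 for Klf4 and 0.64 for Klf7, beside effects in neurons of 1.01, 0.25, -0.13, 0.15 and -0.06. For aldosterone the excess was 1.09 for Klf9 and 0.73 for Klf13, beside effects in neurons of 0.38 and 0.08.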

How the results depend on the processing

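Of 2745 values of single genes under the alternatives, 2656 kept their direction and side of the threshold or moved by less than the spread between arrays, 68 lost a call, 15 gained one, 6 uncalled values moved by more, and 0 called values changed sign. The methods' t-test called 2 genes (Klf9 and Klf13) with dexamethasone in astrocytes in place of 7, 0 with aldosterone in place of 3, 0 with progesterone, 0 with dexamethasone in neurons, and 0 for aldosterone against progesterone, dihydrotestosterone and estradiol in place of 2, 3 and 3. It uses only the arrays of the groups compared. For progesterone against vehicle in astrocytes (1 gene, Klf7) the count was 0 with quantile normalization, with astrocytes and neurons fitted separately and with the chip of the labels as a random block, 2 with the replicate block, and 0 to 1 when each array was left out. With all 48 arrays, dexamethasone in neurons gave 0 calls. The difference between cell types with dexamethasone (5 genes) gave 3 with the chip of the labels and 2 to 4 when each array was left out. The replicate block gave 5 genes for aldosterone against estradiol in place of 3, and 1 for progesterone against dihydrotestosterone in place of 0. It moved no other count of calls by more than 1.5 times. Leaving out each array gave 6 to 7 genes for dexamethasone and 3 to 4 for aldosterone in astrocytes. The cause of these changes was not tested. Dim probes limit Klf3, Klf4, Klf10 and Klf15, whose levels in neurons were near or under background.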
